A study of Mus musculus with 6 samples.

Results

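The genes examined are 10 genes of the step from cortical progenitor to neuron: Neurog1, Neurog2, Insm1, Gadd45g, Btg2, Eomes, Sstr2, Neurod1, Neurod2 and Neurod6. The rule lists them by name from what is known of them and uses no measured value, but they were proposed with earlier results of these data known. All 10 are among the 17348 genes of the table. Of these 10, 9 passed the filter on low counts that left 13570 genes for testing, and Neurog1 did not. The libraries were made from mRNA of mouse cortex at E18.5, late in embryonic neurogenesis, 3 from control embryos and 3 from Ybx1 cKO embryos. The labels call the controls WT, and the study's RNA-seq methods call them wild type littermates. Elsewhere the study describes its controls as Ybx1 fl/fl littermates without Cre. The cKO embryos were Nestin-Cre, Ybx1 fl/fl, so that both alleles of Ybx1, which encodes an RNA-binding protein that reads the m5C mark on mRNA, carried loxP sites, with exons 3 to 8 removed by the recombinase. Nestin-Cre acts in neural progenitors across the nervous system and its effect passes to their descendants, so progenitors and neurons are both affected, while cells of other origin in the tissue keep the gene. The series text calls the libraries of a group biological replicates and does not say whether each came from 1 embryo or from a pool. It also mentions 3 sequencing batches without saying which library was in which, so p-values measure the spread between these libraries.

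In the developing cortex, radial glia divide to give intermediate progenitors, which divide again in the subventricular zone and give glutamatergic neurons. Neurogenins are proneural basic helix-loop-helix (bHLH) factors that start this step, Eomes (the protein is also called Tbr2) is the T-box factor that defines intermediate progenitors, and the NeuroD factors follow in turn, with Neurod1 in late progenitors and newborn neurons and Neurod2 and Neurod6 in postmitotic glutamatergic neurons. At E18.5 most cortical neurons have been born and the progenitor zones are thin. In bulk tissue, fewer cells of a type and less RNA per cell cannot be told apart.

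Neurogenins and NeuroD factors bind DNA at E-boxes, and the promoters of the 3 NeuroD genes are shown because these paralogs are all expressed here at levels that differ widely. RefSeq promoters of GRCm38.p6 were found for 9 of the 10 genes. Each sequence is the 250 bases before the RefSeq start of transcription, written 5′ to 3′ on the strand of the gene. Each match to CANNTG is in capitals (the motif reads the same on both strands). GENCODE M21 places the start of Neurod1 further upstream, at base 79456751, so part of the Neurod1 window lies inside the gene of that annotation.
Neurod1 (chr2:79456637-79456886, minus strand): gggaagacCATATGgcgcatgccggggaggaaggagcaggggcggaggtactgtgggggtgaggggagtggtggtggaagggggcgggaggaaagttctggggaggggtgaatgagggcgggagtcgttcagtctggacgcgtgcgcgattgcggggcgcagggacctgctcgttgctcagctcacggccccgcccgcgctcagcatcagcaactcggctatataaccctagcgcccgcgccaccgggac
Neurod2 (chr11:98329646-98329895, minus strand): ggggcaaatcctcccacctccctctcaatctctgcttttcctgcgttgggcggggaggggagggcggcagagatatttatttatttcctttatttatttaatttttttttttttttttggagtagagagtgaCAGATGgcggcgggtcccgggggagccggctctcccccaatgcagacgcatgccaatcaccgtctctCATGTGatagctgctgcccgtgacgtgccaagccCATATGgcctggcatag
Neurod6 (chr6:55681264-55681513, minus strand): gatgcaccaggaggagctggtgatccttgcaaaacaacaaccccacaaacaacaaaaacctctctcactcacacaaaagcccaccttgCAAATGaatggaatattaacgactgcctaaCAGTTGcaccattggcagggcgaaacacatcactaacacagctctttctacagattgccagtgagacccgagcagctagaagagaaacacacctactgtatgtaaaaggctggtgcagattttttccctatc
The Neurod2 promoter held 3 such matches, as did that of Gadd45g, Neurod6 held 2 and Neurod1 held 1, while Eomes, Neurog1, Neurog2, Btg2 and Sstr2 held 0. Among 27025 promoters of the same length, 66% held at least 1 match and 12.1% held at least 3. A match is only a run of these letters in this window.

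Totals were 15091951 to 16885451 estimated counts per library, and 3 counts corresponded to 0.176 to 0.206 CPM (counts relative to the TMM-scaled library total), a limit for counting error only. Ybx1 had 13950 to 22152 estimated counts in the control libraries and 387 to 394 in the cKO libraries. The cortical genes Emx2 and Tbr1 had 17.3 ± 1.22 and 322 ± 39.6 CPM (SD, n = 3) in control cortex. Control replicate 2 stood apart from the other controls, with a chi-square per degree of freedom of 41.5 and 65.4 against them where controls 1 and 3 gave 10.5 between them. The Y-linked genes Ddx3y, Eif2s3y, Kdm5d and Uty had 352 to 1756 estimated counts in the control libraries and 0 to 22 in the cKO libraries, so sex and genotype cannot be told apart.

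None of the 9 genes tested passed the test between cKO and control cortex, and the estimated changes were small. With edgeR's quasi-likelihood test and Benjamini-Hochberg adjustment over all genes, 0 of the 9 had an adjusted p under 0.05, where 0.0737% of all genes tested had one (10 of 13570). At an unadjusted p under 0.05 it was also 0 of 9, where 6.62% of all genes passed (899 of 13570), and DESeq2 likewise called 0. In cKO, 5 of the 9 lay above control and 4 below, with log2 fold changes between -0.33 for Gadd45g and 0.15 for Neurod1. Their median log2 fold change was 0.0099, beside 0.0027 over all genes tested, and their median absolute log2 fold change was 0.10, beside 0.13. Adjusted p-values ran from 0.796 to 0.991. The 95% intervals of 8 of the 9 lay within a 1.5-fold change in either direction, and that of Gadd45g reached down to 0.605 times the control level.

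**Figure D1:**
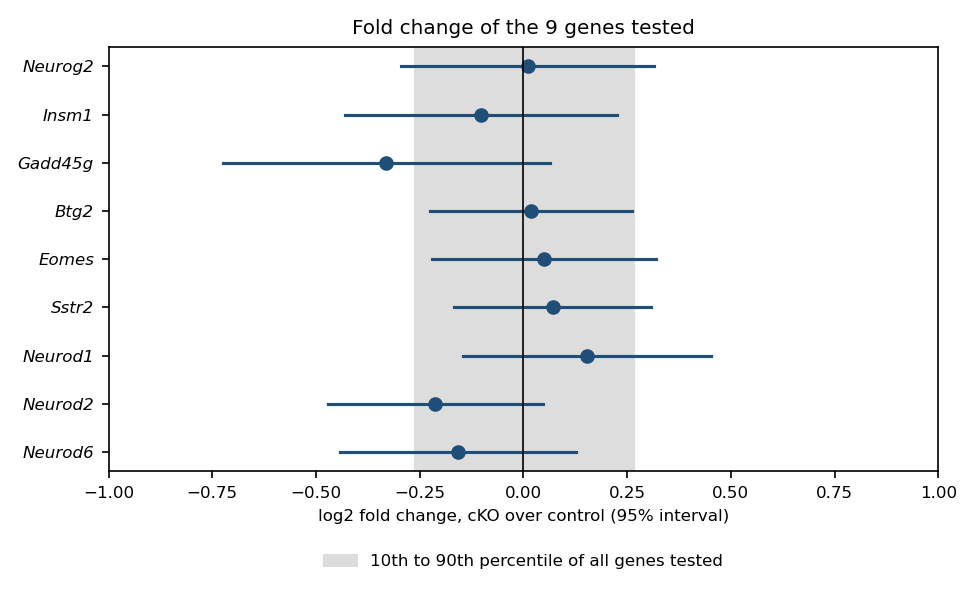
Log2 fold change of cKO over control cortex for each of the 9 genes tested (points) with its 95% interval (lines), from edgeR's quasi-likelihood fit on 3 libraries a group. Every interval includes 0, and 8 of the 9 points lie within the grey band, which spans the 10th to the 90th percentile of all 13570 genes tested (-0.26 to 0.27).

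Gene positions are those of GENCODE M21 on GRCm38. Neurog2 (chr3:127633135-127635631, plus strand), the main proneural factor of cortical glutamatergic progenitors, had 60.5, 58.3 and 61.2 CPM in the control libraries and 50.2, 70.9 and 60.2 CPM in the cKO libraries. The cKO libraries reached both lower and higher than every control, with a coefficient of variation of 17.1% in cKO and 2.49% in control. Its log2 fold change was 0.0099 (standard error 0.135, 95% interval -0.29 to 0.31, adjusted p = 0.991). Neurog1 (chr13:56250478-56252163, minus strand), the related neurogenin, was counted 7, 1 and 5 times in the control libraries and 3, 4 and 4 times in the cKO libraries. These counts are at or near the floor of 3 counts in both groups, so it was left out of the test and no fold is given.

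Insm1 (chr2:146221921-146225020, plus strand), a zinc-finger factor that promotes the production of intermediate progenitors, had 125, 152 and 111 CPM in control and 108, 137 and 116 CPM in cKO cortex. The groups overlapped, with control replicate 2 the highest and cKO replicate 1 the lowest. Its log2 fold change was -0.10 (standard error 0.145, 95% interval -0.43 to 0.23, adjusted p = 0.916), and without control replicate 2 it was 0.030.

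Gadd45g (chr13:51846678-51848468, plus strand), a stress-response and growth-arrest gene expressed as progenitors leave the cell cycle, had 13.7, 20.2 and 14.3 CPM in control and 12.5, 12.4 and 13.5 CPM in cKO cortex. All cKO libraries lay below all controls on this scale, and control replicate 2 was far above the other controls. This was the only one of the 9 genes whose groups did not overlap on CPM, where 14.3% of all genes did not overlap. Its log2 fold change was -0.33 (standard error 0.174, 95% interval -0.72 to 0.064, adjusted p = 0.796), the exact two-sided permutation p was 0.1, the smallest that 3 libraries against 3 allow, and the log2 fold change was -0.13 without control replicate 2 and -0.16 after correcting for transcript length and GC content. On the authors' TPM and FPKM values the groups of Gadd45g overlapped.

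Btg2 (chr1:134075170-134079120, minus strand), an antiproliferative gene that marks progenitors about to make neurons, was the steadiest of the 9, with 28.3, 27.7 and 29.8 CPM in control and 28.5, 28.2 and 30.3 CPM in cKO cortex. The highest library exceeded the lowest by 1.09-fold, and the groups overlapped. Its log2 fold change was 0.019 (standard error 0.108, 95% interval -0.23 to 0.26, adjusted p = 0.982).

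Eomes (chr9:118478212-118486132, plus strand) had 146, 138 and 158 CPM in the control libraries and 134, 168 and 156 CPM in the cKO libraries. The lowest and the highest library were both cKO, replicates 1 and 2, with all controls between them. The log2 fold change of Eomes was 0.050 (standard error 0.119, 95% interval -0.22 to 0.32, adjusted p = 0.947), and the interval corresponds to a cKO level of 0.858 to 1.25 times control. Part of an Eomes exon is also covered by the antisense gene Gm33460, and reads of the pair cannot be separated without strand, which is not given in the sources used here.

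Sstr2 (chr11:113619342-113626028, plus strand), a somatostatin receptor found on intermediate progenitors and young neurons, had 53.2, 59.9 and 51.9 CPM in control and 57.2, 59.7 and 56.3 CPM in cKO cortex. The cKO libraries lay within the range of the controls. Its log2 fold change was 0.070 (standard error 0.105, 95% interval -0.17 to 0.31, adjusted p = 0.918), and 0.14 after correcting for length and GC content. Per length the picture differed, since Sstr2 had 63.9, 62.4 and 64.4 TPM in control and 74.4, 76.7 and 72.4 TPM in cKO cortex. All cKO libraries were above all controls on TPM, the only one of the 9 genes of which this holds, where 21.6% of all genes did not overlap on that scale. The median gene was itself 0.15 higher in cKO on log2(TPM + 0.5), and Sstr2 was 0.23 higher. On the authors' FPKM values its groups overlapped. The gene lies within Slc39a11, which is on the other strand and shares no exon with it.

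Neurod1 (chr2:79452521-79456751, minus strand), the first NeuroD factor to appear, had 34.6, 40.8 and 47.8 CPM in control and 44.2, 46.8 and 45.9 CPM in cKO cortex. The cKO libraries were close together and inside the wider range of the controls. Its log2 fold change was 0.15 (standard error 0.132, 95% interval -0.15 to 0.45, adjusted p = 0.862), and it was 0.044 without control replicate 1 and 0.28 without control replicate 3. Its exons share bases with Cerkl on the same strand, which had 0 to 10 estimated counts per library, and with Gm26755 on the other.

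Neurod2 (chr11:98325415-98329648, minus strand) had 501, 542 and 544 CPM in the control libraries and 414, 501 and 454 CPM in the cKO libraries. Control replicate 1 and cKO replicate 2 met at the edge of the 2 ranges, and all other cKO libraries lay below all controls. The log2 fold change of Neurod2 was -0.21 (standard error 0.114, 95% interval -0.47 to 0.047, adjusted p = 0.796). Neurod6 (chr6:55677822-55681263, minus strand) had 845, 819 and 1010.5 CPM in control and 732, 857 and 808 CPM in cKO cortex. Its groups overlapped, with control replicate 3 the highest. The log2 fold change of Neurod6 was -0.16 (standard error 0.126, 95% interval -0.44 to 0.13, adjusted p = 0.858), and it was -0.059 without control replicate 3.

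**Figure D2:**
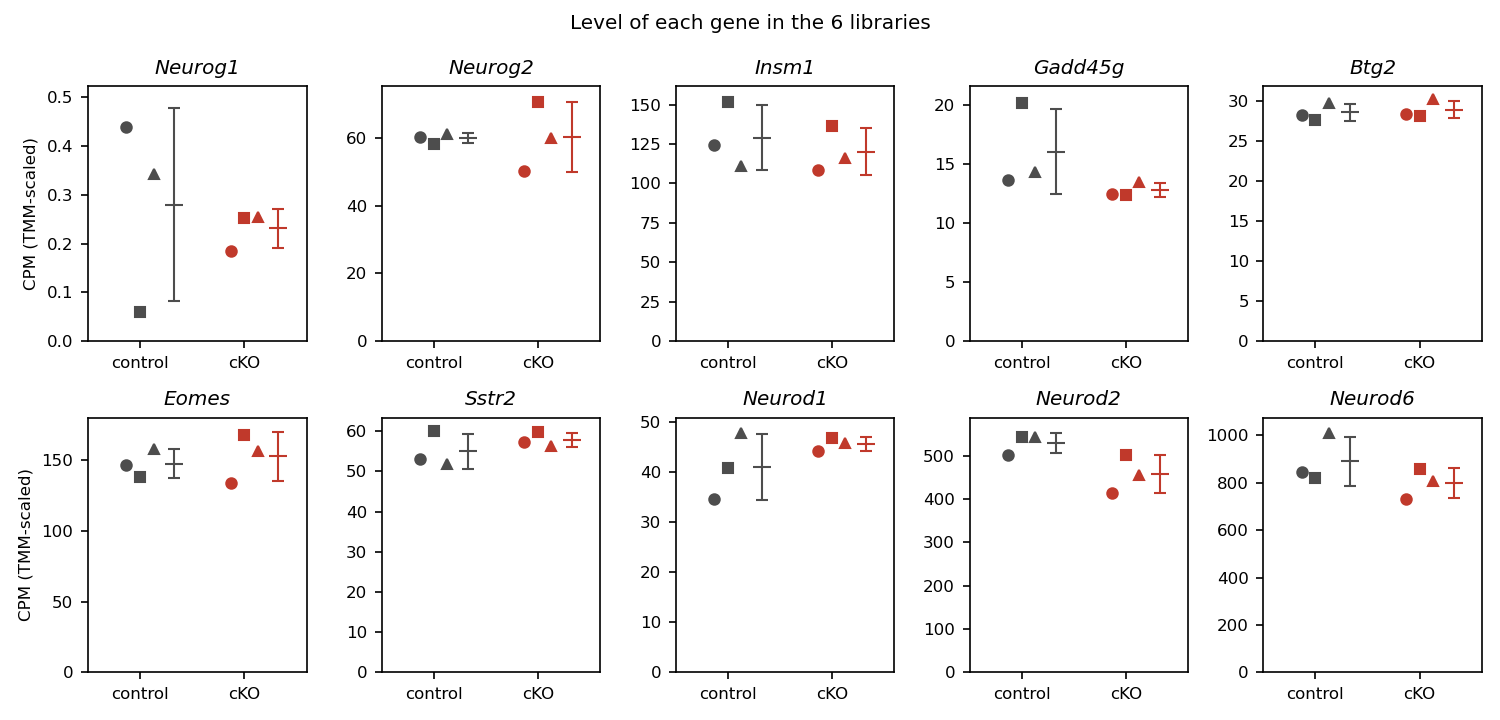
CPM on the TMM-scaled total of each of the 10 genes in the 3 control (grey) and 3 cKO (red) libraries, with circles, squares and triangles for replicates 1, 2 and 3 and bars for the mean and SD. Only in Gadd45g do all cKO libraries lie below all controls, and in Neurog2 the cKO libraries spread from 50.2 to 70.9 CPM around controls of 58.3 to 61.2 CPM.

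Low values of several genes fell in the same library. In cKO replicate 1, 5 of the 9 genes had their lowest value of the 6 libraries, namely Neurog2, Insm1, Eomes, Neurod2 and Neurod6, and its median deviation from the control mean was -0.24 on the log2 scale, against -0.045 to 0.094 in the other libraries. Control replicates 2 and 3 each held the highest value of 3 genes. Over the 6 libraries Eomes and Neurog2 had a Pearson r of 0.88 on log2 CPM, and Neurod2 and Neurod6 one of 0.78, while Eomes and Insm1 had 0.0098. Insm1 and Btg2 had -0.69. These are descriptions of 6 points that share their library, its depth and its composition. Among the 13570 genes tested, the 5 most like Eomes by the same measure over the same 6 libraries were Khdrbs2 (r = 0.986), Vmn2r1 (0.981), Stc2 (0.979), Mapkap1 (0.968) and Recql5 (0.968). Of the genes tested, 71 had an r above 0.9.

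Per length, the 10 genes covered a wide range of levels. In control cortex Neurod6 had 1032 ± 200 TPM (SD, n = 3), Neurod2 388 ± 32.6 TPM and Insm1 100.2 ± 7.20 TPM. Eomes had 93.2 ± 14.0 TPM, Neurog2 65.4 ± 7.07 TPM, Sstr2 63.6 ± 1.02 TPM and Gadd45g 43.3 ± 5.34 TPM. Neurod1 had 40.0 ± 8.41 TPM, Btg2 22.0 ± 2.66 TPM and Neurog1 0.443 ± 0.321 TPM. The genes of postmitotic neurons thus stood at the top and the second neurogenin at the bottom, with the intermediate progenitor genes between them. Over all 6 libraries the ranges of neighbours did not overlap between Neurod6 and Neurod2, Neurod2 and Insm1, Sstr2 and Gadd45g, Neurod1 and Btg2, and Btg2 and Neurog1. The order of the other neighbours was not separated by the ranges. Eomes was above Neurog2 in 6 of 6 libraries, Insm1 above Eomes in 4, Neurog2 above Sstr2 in 4, and Gadd45g above Neurod1 in 2. In cKO cortex the means were 1017 ± 75.3 TPM (SD, n = 3) for Neurod6, 106 ± 11.6 TPM for Eomes and 0.387 ± 0.0666 TPM for Neurog1.

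**Figure D3:**
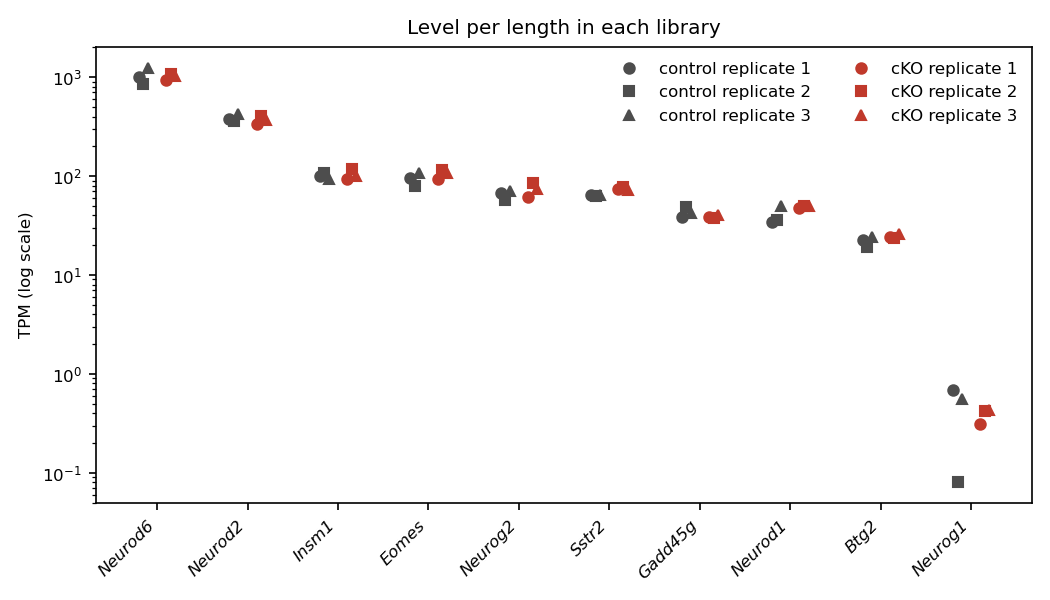
The authors' TPM value of each of the 10 genes in each library on a log scale, ordered by the mean of the control libraries, with control in grey and cKO in red. Neurod6, between 849 and 1245 TPM, and Neurod2 stand above the other genes in every library and Neurog1 stands below 1 TPM in every library.

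Ratios of TPM values within a library do not depend on how libraries are scaled, and 6 of them, chosen after the levels had been seen, were compared with exact two-sided permutation tests. Neurod2 relative to Eomes was 3.99, 4.61 and 3.99 in control and 3.60, 3.49 and 3.38 in cKO libraries. Neurod6 relative to Eomes was 10.6, 10.8 and 11.7 in control and 10.1, 9.37 and 9.47 in cKO libraries. For both ratios all cKO libraries were below all controls, by -0.26 and -0.20 on the log2 scale. Each had an exact two-sided p of 0.1 and an adjusted p of 0.3 over the 6 ratios. The smallest p possible here is 0.1, so no ratio could have passed at 0.05. These ratios share Eomes, and Neurod2 and Neurod6 had an r of 0.78 over the 6 libraries, so they are not separate observations. The share of all gene pairs whose ratios do not overlap was not computed. Eomes relative to Neurog2 was 1.42 ± 0.0739 (SD, n = 3) in control and 1.46 ± 0.0910 (SD, n = 3) in cKO (exact p = 0.8, adjusted p = 0.8), and Neurod1 relative to Eomes was 0.429 ± 0.0552 and 0.466 ± 0.0413 (exact p = 0.6, adjusted p = 0.72). Neurod6 relative to Neurod2 was 2.65 ± 0.294 and 2.76 ± 0.0671 (exact p = 0.6, adjusted p = 0.72). Eomes relative to Pax6, the radial glia factor, was 3.57 ± 0.601 and 2.93 ± 0.384 (exact p = 0.2, adjusted p = 0.4). The last 4 ratios overlapped between the groups.

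**Figure D4:**
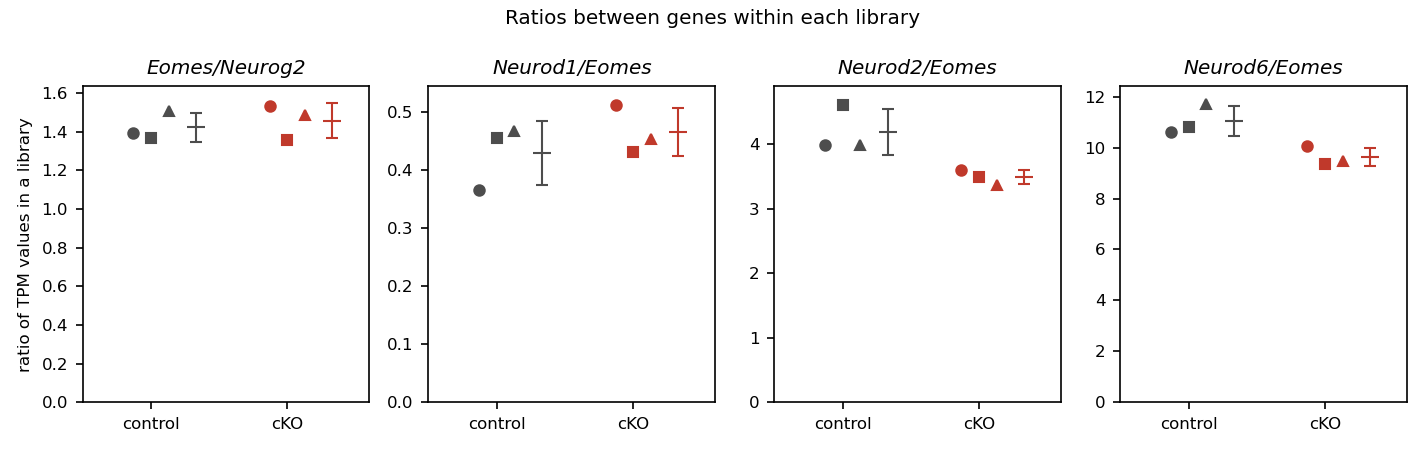
Ratio of the TPM values of pairs of genes within each library, for 3 control (grey) and 3 cKO (red) libraries, with the mean and SD. The cKO libraries lie below all controls for Neurod2 and Neurod6 relative to Eomes and overlap with the controls for Eomes relative to Neurog2 and Neurod1 relative to Eomes.

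Other genes of the same steps were counted from lists. Of 10 other intermediate progenitor genes, all tested, 0 had an adjusted p under 0.05, 6 lay above 0 and 4 below, and their median log2 fold change was 0.019. Their largest differences were those of Hes6, a bHLH factor that promotes neuronal differentiation (log2 fold change -0.47, adjusted p = 0.862), and of Dll3, a Notch pathway ligand (-0.46, unadjusted p = 0.0223, adjusted p = 0.622), the only one of the 10 with an unadjusted p under 0.05. Hes6 varied widely between libraries, with 24.5, 73.0 and 43.6 CPM in control and 19.4, 42.2 and 40.5 CPM in cKO cortex. Of 5 other neuronal bHLH factors tested, 0 were called, 1 lay above 0 and 4 below, with a median of -0.23. Nhlh1 had a log2 fold change of 0.64 (unadjusted p = 0.0457, adjusted p = 0.733) and Bhlhe22, a relative of the NeuroD factors named here after its value was seen, one of -0.36 (unadjusted p = 0.0140, adjusted p = 0.569). The summed level of this list was 307 to 360 CPM in control and 240 to 279 CPM in cKO, most of it from Bhlhe22. These sums did not overlap, where 14.3% of single genes did not overlap on CPM. Of 10 bHLH partners and inhibitors 0 were called, 4 lay above 0 and 6 below, with a median of -0.078. Their summed level was 647 to 667 CPM in control and 585 to 622 CPM in cKO, which did not overlap either. Id2, which keeps bHLH factors from binding DNA, had 266, 263 and 286 CPM in control and 187, 219 and 229 CPM in cKO cortex (log2 fold change -0.36, unadjusted p = 0.0122, adjusted p = 0.555), and Id1 a log2 fold change of -0.31 (adjusted p = 0.854).

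The lists for the cells before and after intermediate progenitors held 0 called genes. Of 10 radial glia genes 0 were called, 6 lay above 0 and 4 below, with a median log2 fold change of 0.0095, where Aldoc had 0.36 (adjusted p = 0.840) and Hopx -0.33 (adjusted p = 0.864). Pax6, which directs radial glia, was the only one with an unadjusted p under 0.05. It had 42.6, 45.1 and 37.5 CPM in control and 52.0, 50.5 and 52.4 CPM in cKO cortex, all cKO libraries above all controls (log2 fold change 0.31, unadjusted p = 0.0204, adjusted p = 0.608). Aldoc also had all cKO libraries above all controls, with 65.0, 63.9 and 31.8 CPM in control and 71.1, 69.9 and 65.3 CPM in cKO cortex. Of all genes tested, 14.3% did not overlap between groups on CPM. Of 10 early postmitotic neuron genes 0 were called, 3 lay above 0 and 7 below, with a median of -0.068, where Unc5d had 0.42 (adjusted p = 0.789) and Tubb3 -0.31 (adjusted p = 0.795).

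Genes of other regions and cell types were summed because dissection and blood can differ between libraries. Of these lists, only that of hippocampus and dentate gyrus had sums that did not overlap between groups, with 288, 189 and 282 CPM in control and 310, 294 and 313 CPM in cKO libraries, where 14.3% of single genes did not overlap. The low value was that of control replicate 2, in which Zbtb20 had 13.3 CPM against 76.6 and 75.5 CPM in the other controls. The sums of those 2 controls lay close to those of the cKO libraries. Spock1 had the largest share of these sums, with 122, 108 and 124 CPM in control and 160, 148 and 146 CPM in cKO cortex. All cKO libraries lay above all controls for Spock1 (log2 fold change 0.36, unadjusted p = 0.0077, adjusted p = 0.490). Of the 10 genes of this list 9 lay above 0 and 0 were called, with a median of 0.22 and Dsp at 0.39 (adjusted p = 0.861). Grik4 had 0.45 (unadjusted p = 0.0231, adjusted p = 0.624), with all cKO libraries above all controls. Other genes of the list were flat. Prox1 had 31.0, 15.8 and 25.8 CPM in control and 29.5, 19.2 and 26.2 CPM in cKO cortex (log2 fold change 0.047, adjusted p = 0.980). Wfs1 was at 0.016 (adjusted p = 0.989), and the groups overlapped for both Prox1 and Wfs1. The dentate gyrus holds Eomes and Neurod1 cells of its own at this age, and the part of this difference in the levels above was not tested. Olfactory mitral cells also express Eomes, and Cajal-Retzius and olfactory mitral genes had 434 to 594 CPM in control and 463 to 544 CPM in cKO libraries, with 8 of 8 tested below 0, a median of -0.037, Calb2 at -0.88 (adjusted p = 0.732) and Lhx5 at -0.48 (adjusted p = 0.795), while the mitral genes Cdhr1 and Tbx21 were too low to be tested. Interneuron genes had 513 to 611 and 460 to 670 CPM (9 tested, median 0.016, Gad2 0.30, Npy 0.32). Thalamus genes had 347 to 374 and 345 to 362 CPM (8 tested, median 0.17, Tcf7l2 0.31). Lhx2 had the largest share of these thalamus sums, with 177 ± 24.8 CPM (SD, n = 3) in control and 171 ± 18.4 CPM in cKO. Gbx2 and Lhx9 were too low to be tested, and the share of thalamic tissue was not tested. Choroid plexus genes had 8.96 to 12.4 CPM over both groups (3 tested, median 0.075, Sostdc1 -0.32, Aqp1 0.17), with Ttr at 0 or 1 count. Erythroid genes had 987 to 1352 and 1000.3 to 1220 CPM (7 tested, median -0.044, Hba-a2 -0.20), immediate early genes 52.1 to 95.8 and 51.9 to 81.5 CPM (8 tested, median -0.14, Arc 0.48, Fos -0.42, with Fos at 124 and 97 counts in replicate 3 of control and cKO and 3 to 19 counts in the other libraries), and p53 targets 356 to 387 and 375 to 403 CPM (10 tested, median -0.051, Eda2r -0.32, Bbc3 -0.72). Bbc3 had all cKO libraries below all controls and was the only one of the 10 p53 targets with an unadjusted p under 0.05 (unadjusted p = 0.0119, adjusted p = 0.554). In these lists, the Cajal-Retzius and mitral list included, 0 genes had an adjusted p under 0.05.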

How the data were processed

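mRNA of 3 control and 3 Ybx1 cKO cortices at E18.5 was sequenced, and libraries were assigned to groups from the submitters' labels. The authors deposited 1 table of 27 columns, of which 18 were used. For each gene these give 1 estimated count, 1 TPM and 1 FPKM value in each of the 6 libraries. The deposited estimated counts carry no scaling between libraries. The TPM values of the authors are scaled for transcript length to a fixed sum per library, and the authors' FPKM values for length and library total. The authors' group averages were not used, and 0 columns of per-sample values were left unused. The submitters' processing notes name HISAT2 2.2.1, Bowtie2 2.4.5 and RSEM 1.3.1 and the builds GRCm38 and mm10. The annotation and strandedness are not given in the sources used here.

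Estimated counts (89.4% whole) were rounded, filtered with filterByExpr, scaled by TMM and tested in R 4.3.3 with the quasi-likelihood method of edgeR 4.0.16, with p-values adjusted over 13570 genes by Benjamini and Hochberg. The F statistic and the fold change gave standard errors and 95% intervals. CPM values refer to the TMM-scaled total, and a pseudocount of 0.5 was used for log2 TPM and FPKM. edgeR's common biological coefficient of variation, 0.147, exceeds counting error. No replicates of a group were duplicates (chi-square per degree of freedom 3.52 to 65.4). Promoters came from RefSeq, GRCm38.p6, and overlapping genes from GENCODE M21. The methods were tested on simulated data at an adjusted p under 0.05. There, 31.3% of genes changed 1.5-fold and 98.5% of genes changed 2-fold were called, along with 13 unchanged genes. The changed genes were drawn from well-counted genes only. Every simulated gene had the common coefficient of variation, and no simulated library stood apart as control replicate 2 did. The shares called hold for that setting and were not measured for the real libraries.

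The genes and lists were chosen with earlier results of these data known. Named were the 10 genes, Ybx1, the Y-linked genes, the 5 genes most like Eomes, and from each list the genes called or else up to 2 with the largest absolute log2 fold change, except items withheld for evaluation, which are left out. Emx2 and Tbr1 (cortical genes), Pax6, Zbtb20, Bhlhe22, Spock1, Prox1, Wfs1 and Lhx2 were added after their values were seen. So were genes of the lists too low to be tested and genes that share bases with a named gene. Alternatives were RLE size factors, DESeq2 1.42.0, TMM factors computed without ribosomal protein genes and translation factors, no filter, CPM above 1 in 2 libraries, X and Y genes left out, each library left out, the replicate number as a block, a length and GC correction (mgcv 1.9.3, values for 96.7% of genes) with and without the block, other thresholds, and FPKM for TPM. Python 3.11.15 and matplotlib 3.10.9 drew the figures.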

Additional observations from a re-analysis of the deposited data

How the results depend on the processing

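In all 15 alternative fits, 0 of the 9 genes were called and 0 had an unadjusted p under 0.05. Of 135 log2 fold changes over these fits, 8 changed sign, all in Neurog2, Eomes, Insm1 or Btg2, and the lowest adjusted p was 0.358, for Neurod1 without control replicate 3. Neurog2 turned to -0.0034 with no filter. Leaving out 1 library at a time gave -0.12 to 0.13 for Neurog2, -0.023 to 0.14 for Eomes, -0.20 to 0.030 for Insm1, -0.015 to 0.049 for Btg2, 0.044 to 0.28 for Neurod1, -0.22 to -0.059 for Neurod6, -0.28 to -0.14 for Neurod2, -0.43 to -0.13 for Gadd45g, 0.030 to 0.14 for Sstr2, and -0.12 (without cKO replicate 2) to 0.033 for the median of the 9. With FPKM in place of TPM, 0 genes had groups that did not overlap, against 1. The log2 fold change of Neurod2 minus that of Eomes, which library scaling cannot change, was -0.29 to -0.20 when 1 library was left out and -0.24 after correcting for length and GC content, and that of Neurod6 minus Eomes -0.24 to -0.16 and -0.23.

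The number of all genes called, 10, was 94 with DESeq2, 6 without X and Y genes, 151 after correcting for length and GC content, 159 after the same correction in a fit with the replicate block, 18 at an adjusted p under 0.1 and 858 at an unadjusted p under 0.05 with a 1.2-fold change. Leaving out 1 library gave 8 to 122, with 122 without control replicate 2 and 19 without control replicate 3. The cause of these differences was not tested. With the replicate block alone it was 11, 0 of the 9 genes were called, and Neurog2 was -0.0030. Same-numbered libraries correlated by 0.061 to 0.230, and 6 of 6 libraries correlated best with their own number, but the series text, which mentions 3 sequencing batches, and the labels do not say that a number marks one. At 197 to 345 counts, Gadd45g had the largest standard error of the 9.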
